A study of Mus musculus with 9 samples.

Results

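The genes described here are 10 markers of T cells, natural killer (NK) cells, neutrophils and leukocytes at large, measured by RNA-seq in mouse kidney. They are Cd3e, Cd3g, Cd4, Cd8a, Trac, Nkg7, Gzmb, S100a8, S100a9 and Ptprc, taken by gene name from the 55385 genes of the deposited table. Each name matched 1 gene, and all 10 were among the 21392 genes that had enough counts to be tested.

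The study asked how pectolinarigenin (PEC), a plant flavonoid, acts on hyperuricemic nephropathy (HN), a kidney disease that follows from excess uric acid. Kidneys of 3 Control, 3 HN and 3 PEC mice were sequenced after poly(A) selection, with 1 library per mouse. All mice were labelled as C57BL/6 (C57BL/6J in the study's text) and were 8 to 10 weeks old, and each group of the study held 8 mice. Control mice were untreated, and HN mice had received adenine at 0.16 g/kg with potassium oxonate at 2.4 g/kg for 4 weeks. PEC mice had received the same agents over the same time together with PEC, at a dose that the sample labels leave out and that the study's text gives as 25 mg/kg. The titles of the Control samples also carry the words HN mice, but the disease state given for them is control, so they served as Control here. The kidney lists showed the labelled tissue, since Umod, the uromodulin gene of the thick ascending limb, stood between 845 and 1385 FPKM in all libraries. FPKM, computed by the authors, scales the fragments counted on a gene by its length and by the size of the library.

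T cells recognise antigen through a receptor whose alpha and beta chains are held in the membrane by the CD3 chains, and the coreceptors CD4 and CD8 divide them into helper and cytotoxic cells. NK cells and cytotoxic T cells kill targets with granules that hold granzymes. Neutrophils carry large amounts of the calcium-binding proteins S100A8 and S100A9, and all nucleated blood cells carry the phosphatase CD45, encoded by Ptprc. In injured kidneys such cells enter the interstitium between the tubules.

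Total counts on genes were 75320528, 74965874 and 78459183 in Control libraries 2, 4 and 5, 74315544, 81069646 and 74212324 in HN libraries 4, 8 and 12, and 74397038, 65583215 and 57714111 in PEC libraries 1, 2 and 3. At this depth Cd3e had between 25 and 52 counts in Control and between 253 and 491 in HN libraries, and Ptprc had between 798 and 8923 in all. Gzmb was the thinnest of the 10 genes, with 4 counts in PEC library 1 and 6 in Control library 5, so that counting error alone is large there.

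The PEC libraries stood apart from the other 6 in the dependence on gene length and GC content and in the share of ribosomal RNA genes. In a principal component analysis the first axis (38.8% of the variance) set Control libraries (-130 to -123) apart from HN (61.8 to 68.3) and PEC libraries (54.7 to 74.7). The second axis (26.3%) placed PEC libraries between 85.6 and 98.0, HN libraries between -95.7 and -83.3 and Control libraries between -4.67 and 4.10. Relative to the mean of all libraries, longer genes read lower in PEC (Spearman rho of the deviation with exon length between -0.27 and -0.24 over 21358 genes) and higher in HN libraries (between 0.15 and 0.18). With GC content the same rho was between 0.16 and 0.19 in PEC and between -0.18 and -0.07 in the other libraries. Genes of ribosomal RNA took 0.117%, 0.682% and 0.119% of counts in PEC libraries 1, 2 and 3 and between 0.00163% and 0.00284% in the others. Mitochondrial genes, lowest in HN, took 13.3%, 12.9% and 16.3% in Control mice, 6.01%, 6.22% and 6.34% in HN mice and 12.99%, 10.3% and 13.7% in PEC libraries. Since group and these properties run together, their part in any difference that involves PEC cannot be told apart from the group. Results with length or GC content removed are given below for some of the genes, mainly those whose call changed.

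Counts went into edgeR's quasi-likelihood test, in 1 fit over the 9 libraries with TMM scaling. A gene was called if its p, adjusted after Benjamini-Hochberg, did not exceed 0.05 and its fold change reached 1.5. A log2 fold change (log2FC) is given with its standard error. HN against Control shares its HN mice with PEC against HN, and its Control mice with PEC against Control, so these comparisons are not independent of each other. The measured RNA comes from whole kidney, where fewer cells of a type and less RNA per cell cannot be told apart.

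Against Control, 7 of the 10 genes were higher in HN kidneys, by 3.45 to 9.83 times: Cd3e, Cd3g, Cd4, Cd8a, Trac, Nkg7 and Ptprc. Among all tested genes 17.7% were higher and 14.7% were lower in this comparison, and 0 of the 10 genes were called lower. The median log2FC was 2.12 over the 10 genes and -0.00 over all tested genes. In PEC against HN, 2 of the 10 genes were called lower, Cd4 and Ptprc, beside 15.3% of all tested genes, so this share is close to that of all genes. None was called higher (0 of 10, beside 13.4% of all genes), and none was with an unadjusted p, DESeq2 or limma. All 10 log2FC lay below 0, with a median of -0.78 against -0.02 over all tested genes. That median was -0.49 without HN library 8 and -0.54 without PEC library 1, and Cd3g, Trac and S100a9 turned above 0 in some alternatives (up to 0.19, 0.03 and 0.26). In PEC against Control, 6 of the 10 genes were higher (18.9% of all genes), namely the T cell genes and Nkg7, and 0 were lower (17.4% of all genes), with a median log2FC of 1.16 against 0.04. No gene of the 10 was called lower against Control in either comparison by an unadjusted p, DESeq2 or limma. The counts called in the gene lists below stand beside the same shares of all tested genes. TMM-normalised CPM (counts relative to the TMM-scaled library total) did not overlap between groups for 8 of the 10 genes in HN against Control, 4 in PEC against HN and 6 in PEC against Control. Of all tested genes 55.4%, 55.5% and 57.3% did not overlap in the same order, so the first count stands above this background, the second below it and the third close to it.

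**Figure D1:**
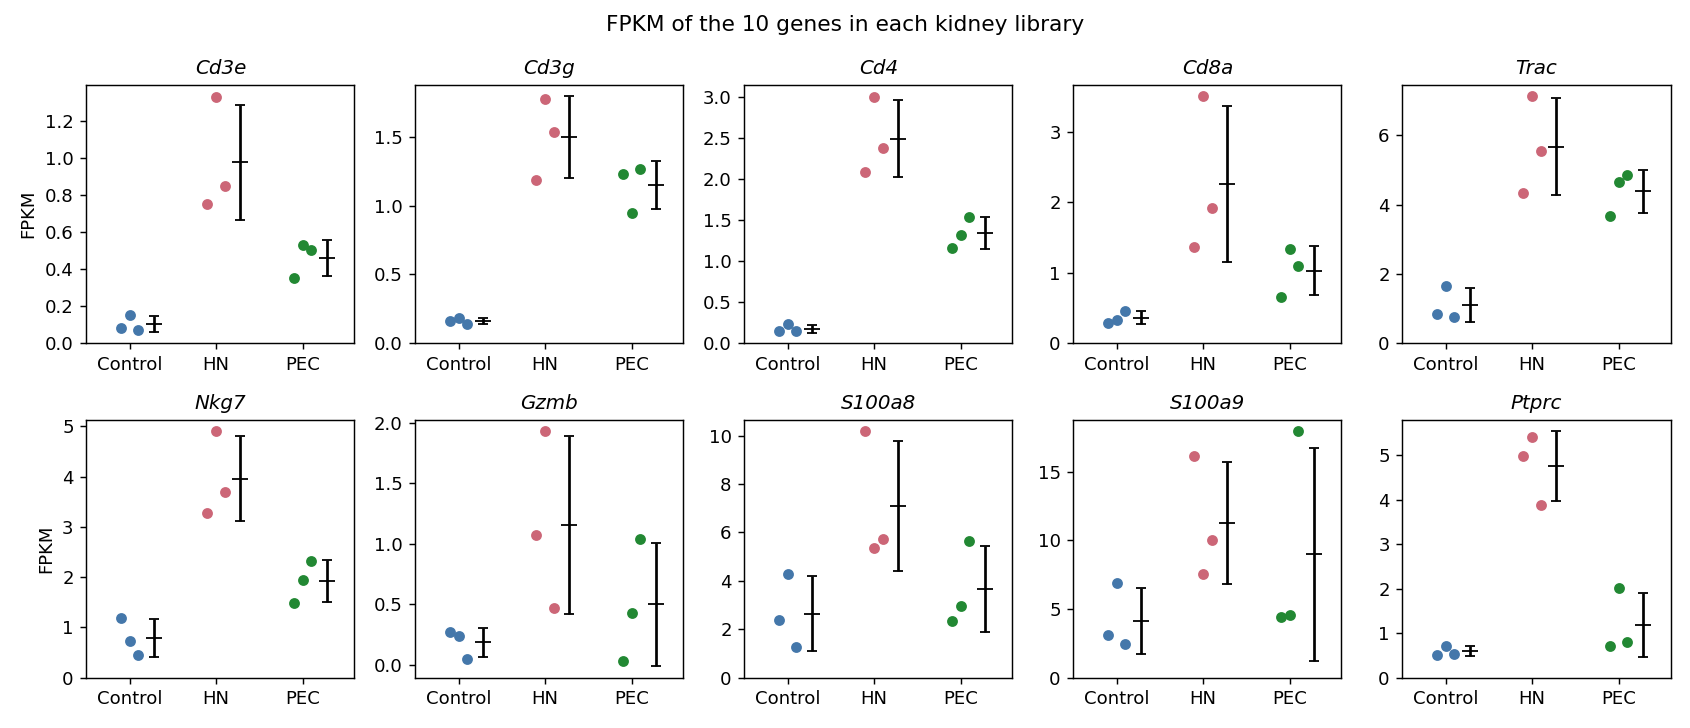
FPKM (vertical axis, linear, a scale of its own in each panel) of the 10 genes in each library, by group (horizontal axis). Each point is 1 mouse, and the bars are the mean ± SD of 3 mice. The Gzmb bar of PEC passes below 0, where no value can lie. All 7 called genes have their HN points above their Control points, while the PEC points of Ptprc reach down to the Control level.

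The CD3 chains carry the signal of the T cell receptor into the cell. Cd3e (ENSMUSG00000032093, chromosome 9 from 44998740 to 45009622, GRCm38) had an FPKM of 0.08, 0.15 and 0.07 in Control mice, 0.75, 1.33 and 0.85 in HN mice and 0.35, 0.53 and 0.50 in PEC libraries. The 3 groups did not overlap, with HN highest and PEC between the others. Its log2FC was 2.72 (SE 0.36, adjusted p = 0.000318 by edgeR with Benjamini-Hochberg) in HN and 1.86 (SE 0.36, adjusted p = 0.00247) in PEC against Control. With limma on log2(FPKM + 1) the PEC call against Control was lost, as the value (0.41) fell below the fold threshold. Between PEC and HN its log2FC of -0.86 (SE 0.34) missed the threshold in edgeR's test (Benjamini-Hochberg adjusted p = 0.0711). That difference passed with DESeq2 (-0.87, adjusted p = 0.0374), with limma on log2(FPKM + 0.1) (-0.92, adjusted p = 0.0307), with library totals (-1.07), in a fit of only HN and PEC (-0.86, adjusted p = 0.0494) and without Control library 4 (-0.87, adjusted p = 0.0420), within a range of adjusted p from 0.0149 to 0.25 over all alternatives.

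Cd3g lies close to Cd3e on the same chromosome (ENSMUSG00000002033, 44969572 to 44980431) and encodes the gamma chain. Its FPKM was 0.16, 0.18 and 0.14 in Control mice, 1.19, 1.78 and 1.54 in HN mice and 1.23, 0.95 and 1.27 in PEC libraries. HN and PEC overlapped, and both lay far above Control. The log2FC against Control was 2.64 (SE 0.23, adjusted p = 2.37e-05 by edgeR with Benjamini-Hochberg) in HN and 2.48 (SE 0.23, adjusted p = 4.17e-05) in PEC. Between PEC and HN it was -0.16 (SE 0.21, adjusted p = 0.578, edgeR), and its sign turned in some alternatives (range -0.36 to 0.19).

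Trac, the constant region of the receptor alpha chain (ENSMUSG00000076928, chromosome 14 from 54220521 to 54224206), was the most abundant T cell gene of the 10 per length. Its FPKM was 0.85, 1.65 and 0.75 in Control mice, 4.33, 7.13 and 5.56 in HN mice and 3.68, 4.64 and 4.84 in PEC libraries. As for Cd3g, PEC and HN overlapped and Control lay below both. Trac was higher than in Control by a log2FC of 1.85 in HN (SE 0.32, adjusted p = 0.00136, edgeR with Benjamini-Hochberg) and of 1.70 in PEC (SE 0.32, adjusted p = 0.00207). PEC and HN differed by -0.15 (SE 0.30, adjusted p = 0.727, edgeR).

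The list of 10 T cell receptor genes shows the same order of levels. Its summed FPKM was 3.13, 5.15 and 2.36 in Control mice, 18.9, 32.8 and 25.2 in HN mice and 15.7, 16.3 and 18.8 in PEC libraries, and Trbc2, a constant region of the beta chain, was its most abundant gene. HN library 8 was the highest, and all PEC libraries lay below the lowest HN library, PEC library 3 narrowly. In HN against Control 8 of the 10 were called higher and 0 lower, and the other 2 were Trgc1 and Trgc2. Trdc was called (log2FC 3.06, adjusted p = 0.0343 by edgeR with Benjamini-Hochberg), but not in a fit of only HN and Control (3.10, adjusted p = 0.0545). Its call was also lost without Control library 2 or 4, any HN library or PEC library 2 (adjusted p between 0.0541 and 0.0851, edgeR). Trgc1 was called with DESeq2 (2.50, adjusted p = 0.012) and library totals (2.98, adjusted p = 0.0171), and Trgc2 with library totals (1.81). In PEC against Control all 10 were called higher. The 3 most abundant besides the genes above were Trbc2 (5.598 times Control in HN and 4.01 times in PEC), Trbc1 (5.28 and 2.77 times) and Cd3d (6.64 and 3.74 times), each called by edgeR in both. The PEC call of Trbc1 was lost without Control library 5 (log2FC 1.23, adjusted p = 0.0502 by edgeR with Benjamini-Hochberg) and without PEC library 1 (1.25, adjusted p = 0.0527), and with length and GC content removed (0.81, adjusted p = 0.112). Under limma on log2(FPKM + 1), which tests fewer of them, 5 were called in PEC against Control.

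Between PEC and HN the list split in direction, with 1 gene called lower (0 to 3 over the alternatives) and 1 higher (0 in some). Cd3d, the delta chain of CD3, was called lower (log2FC -0.83, SE 0.24, adjusted p = 0.0244 by edgeR with Benjamini-Hochberg), with an FPKM of 1.68, 2.53 and 1.95 in HN mice and 0.87, 1.11 and 0.99 in PEC libraries. This call was lost without HN library 8 (-0.67, adjusted p = 0.0996, edgeR) or 12 (-0.88, adjusted p = 0.0510) and without PEC library 1 (-0.75, adjusted p = 0.0840) or 3 (-0.80, adjusted p = 0.0645). Trbc1 (-1.47, adjusted p = 0.0156, edgeR with Benjamini-Hochberg) and Trbc2 (-1.02, adjusted p = 0.0457) were called lower with length and GC content removed, whereas without that removal edgeR gave -0.93 (adjusted p = 0.0883) and -0.48 (adjusted p = 0.315). Trbc1 was called lower with length alone removed (-1.32, adjusted p = 0.0231, edgeR) and with limma on log2(FPKM + 1) (-0.89, adjusted p = 0.0194) or log2(FPKM + 0.1) (-1.13, adjusted p = 0.0341) as well. Trdc, the constant region of the delta chain of gamma-delta T cells, was called higher (2.41, SE 0.80, adjusted p = 0.0406 by edgeR with Benjamini-Hochberg). Its FPKM was 0, 0 and 0.01 in Control mice, 0.07, 0.05 and 0.07 in HN mice and 0.14, 0.37 and 0.39 in PEC libraries. The groups did not overlap, but the level was very low, and the call was lost without HN library 4 (2.46, adjusted p = 0.102, edgeR), 8 (2.25, adjusted p = 0.125) or 12 (2.52, adjusted p = 0.0929) and without PEC library 2 (2.22, adjusted p = 0.110) or 3 (2.21, adjusted p = 0.101).

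The gamma chain constant regions Trgc1 and Trgc2, whose products pair with the delta chain, were also highest in PEC. Trgc1 had an FPKM of 0, 0.05 and 0.05 in Control mice, 0.34, 0.10 and 0.39 in HN mice and 0.67, 1.02 and 0.52 in PEC libraries. Trgc2 had 0.05, 0.16 and 0.05 in Control mice, 0.18, 0.46 and 0.30 in HN mice and 0.58, 0.54 and 0.67 in PEC libraries. PEC and HN did not overlap for either gene, but neither difference was called (Trgc1 log2FC 1.62, adjusted p = 0.122, and Trgc2 1.14, adjusted p = 0.123, edgeR with Benjamini-Hochberg). Trdc, Trgc1 and Trgc2 were singled out after their values were seen.

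**Figure D2:**
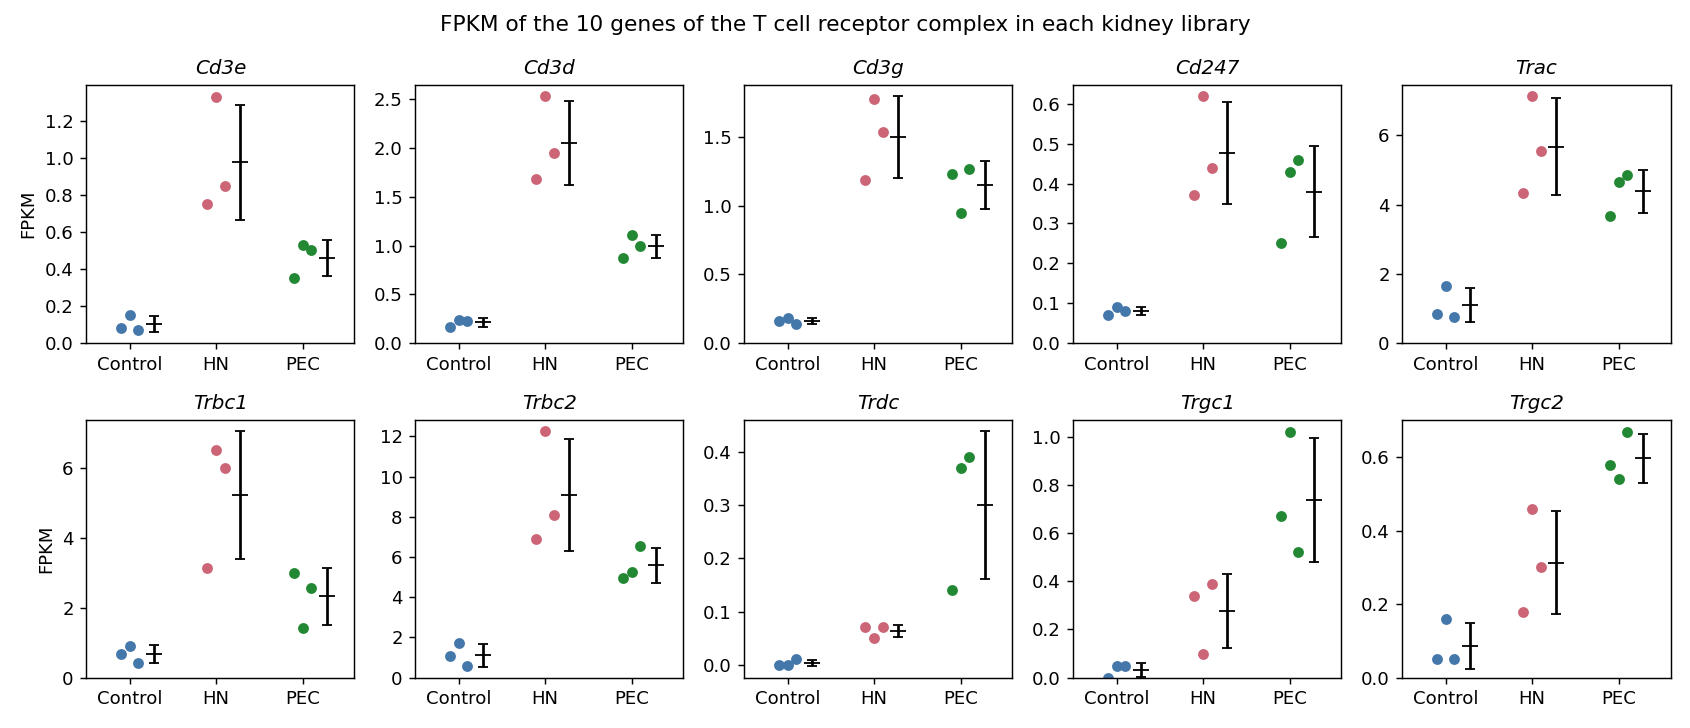
FPKM (vertical axis, linear, separate in each panel) of genes of the T cell receptor complex in each library, by group (horizontal axis), with 1 point per mouse and bars for the mean ± SD of 3 mice. The alpha and beta chain genes are highest in HN, whereas the gamma-delta genes Trdc, Trgc1 and Trgc2 are highest in PEC.

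Cd4 (ENSMUSG00000023274, chromosome 6 from 124864692 to 124888221) encodes the coreceptor of helper T cells. Its FPKM was 0.14, 0.23 and 0.15 in Control mice, 2.08, 3 and 2.38 in HN mice and 1.16, 1.32 and 1.54 in PEC libraries. The 3 groups did not overlap, again with PEC between the others. HN exceeded Control by a log2FC of 3.30 (SE 0.25, adjusted p = 1.17e-05 by edgeR with Benjamini-Hochberg), the largest of the 10 genes, and PEC exceeded Control by 2.63 (SE 0.24, adjusted p = 4.29e-05). From HN to PEC Cd4 fell by 0.66 on the log2 scale (SE 0.22, adjusted p = 0.0419, edgeR with Benjamini-Hochberg), lower in 3 of 3 PEC libraries.

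This last call lies close to both thresholds. It was lost without HN library 4 (-0.76, adjusted p = 0.0513 by edgeR with Benjamini-Hochberg), 8 (-0.52, adjusted p = 0.146) or 12 (-0.72, adjusted p = 0.0714), and without PEC library 1 (-0.58, adjusted p = 0.125) or 2 (-0.66, adjusted p = 0.0927). It was also lost with upper-quartile scaling (-0.54), with limma on log2(FPKM + 1) (-0.57), with no filter (-0.70), with gene length removed (-0.56) and at a fold change of at least 2, and the adjusted p ranged from 0.00276 to 0.146 over all alternatives.

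Cd8a, the alpha chain of the coreceptor of cytotoxic T cells, lies on the same chromosome (ENSMUSG00000053977, 71373427 to 71379169). It had 0.29, 0.32 and 0.46 FPKM in Control, 1.36, 3.51 and 1.92 in HN mice and 0.66, 1.34 and 1.09 in PEC libraries. HN library 8 stood well above the other HN libraries, PEC library 2 came close to the lowest HN library (and exceeded it in TMM-normalised CPM), and Control lay below both groups. The log2FC was 2.11 in HN (SE 0.40, adjusted p = 0.00246 by edgeR with Benjamini-Hochberg) and 1.20 in PEC against Control (SE 0.39, adjusted p = 0.0323), and -0.91 in PEC against HN (SE 0.38, adjusted p = 0.0930). The PEC call against Control was lost without Control library 2 (1.07, adjusted p = 0.0998, edgeR) or 4 (1.10, adjusted p = 0.0956), without PEC library 2 (0.96, adjusted p = 0.101) or 3 (1.18, adjusted p = 0.0670), with length removed (0.98, adjusted p = 0.0615), with length and GC content removed (0.97, adjusted p = 0.0572) and with limma on log2(FPKM + 1) (0.57, adjusted p = 0.0585). The difference from HN passed instead with limma on log2(FPKM + 0.1) (-1.01, adjusted p = 0.0436), with limma on log2(FPKM + 1) (-0.65, adjusted p = 0.0386), with library totals (-1.12, adjusted p = 0.0435) and at an unadjusted p.

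The ratio of Cd8a to Cd4 within a library does not depend on its scaling. The log2 ratio of FPKM was 1.05, 0.48 and 1.62 in Control mice, -0.61, 0.23 and -0.31 in HN and -0.81, 0.02 and -0.50 in PEC libraries. Control lay above both other groups, which overlapped. The mean difference was -1.28 in HN and -1.48 in PEC against Control, each with an exact two-sided permutation p of 0.1, the smallest that 3 against 3 libraries can give (0.24 after Benjamini-Hochberg adjustment over the 36 ratios tested), so neither could pass.

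Around these coreceptors, the list of 24 genes of T cell lineage and signalling was largely higher in HN kidneys, with 21 called higher than in Control. Under limma on log2(FPKM + 1), which tested only genes whose mean FPKM reached 0.5, 12 were called higher. Lck, the kinase that CD4 and CD8 bring to the receptor, had a log2FC of 2.33 (SE 0.31) in HN and 1.96 (SE 0.30) in PEC against Control, both called by edgeR. In PEC against Control 18 of the 24 were higher and 0 lower, and 0 were lower with an unadjusted p, DESeq2 or limma too, while the higher count was 7 with limma on log2(FPKM + 1) and 11 with limma on log2(FPKM + 0.1). Besides Cd4, genes of this list called lower in PEC than in HN included Cd27 and Il7r. Cd27, a costimulatory receptor, fell by 1.01 (adjusted p = 0.0206, edgeR with Benjamini-Hochberg), a call lost without HN library 8 (-0.92, adjusted p = 0.0745) and without PEC library 1 (-0.94, adjusted p = 0.0715). Il7r, the receptor of a T cell survival cytokine, fell by 1.20 (adjusted p = 0.0451, edgeR with Benjamini-Hochberg), which was lost in 7 of the 9 fits that left out 1 library, namely those without Control library 2, any HN library or any PEC library (-1.36 to -1.04, adjusted p between 0.0514 and 0.135). It was lost as well with length removed (-1.04, adjusted p = 0.0756, edgeR), with upper-quartile scaling (-1.07, adjusted p = 0.0634) and with no filter (-1.23, adjusted p = 0.0546), and with length and GC content removed it shrank to -0.64 (adjusted p = 0.271).

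Nkg7 (ENSMUSG00000004612, chromosome 7 from 43437073 to 43438249) encodes a granule protein of NK and cytotoxic T cells. Its FPKM was 1.19, 0.72 and 0.45 in Control mice, 3.27, 4.91 and 3.70 in HN mice and 1.49, 1.95 and 2.33 in PEC libraries. The groups did not overlap, and PEC library 1 lay close to Control library 2. The log2FC was 1.78 in HN (SE 0.36, adjusted p = 0.00322 by edgeR with Benjamini-Hochberg) and 0.97 in PEC against Control (SE 0.35, adjusted p = 0.0492), and -0.82 in PEC against HN (SE 0.34, adjusted p = 0.0904).

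Both PEC comparisons of Nkg7 depended on the setting. The call against Control was lost without Control library 4 (0.89, adjusted p = 0.127 by edgeR with Benjamini-Hochberg) or 5 (0.70, adjusted p = 0.126), HN library 4 (0.96, adjusted p = 0.0674), 8 (0.96, adjusted p = 0.0645) or 12 (0.96, adjusted p = 0.0719) and PEC library 2 (0.96, adjusted p = 0.0954) or 3 (0.82, adjusted p = 0.128). With length and GC content removed it fell to 0.32 (adjusted p = 0.489, edgeR), while the difference from HN grew to -1.32 (adjusted p = 0.0175) and was called. That difference was also called with limma on log2(FPKM + 1) (-0.76, adjusted p = 0.00783) and on log2(FPKM + 0.1) (-1.01, adjusted p = 0.0241), with library totals (-1.02, adjusted p = 0.0465), in a fit of only HN and PEC (-0.82, adjusted p = 0.0393), with length alone removed (-1.16, adjusted p = 0.0280, edgeR) and without Control library 2 (-0.83, adjusted p = 0.0467). Its adjusted p ranged from 0.00783 to 0.25 over all alternatives.

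Gzmb (ENSMUSG00000015437, chromosome 14 from 56258838 to 56262260) encodes granzyme B, a protease of killing granules. Its FPKM was 0.27, 0.24 and 0.05 in Control mice, 1.07, 1.93 and 0.47 in HN mice and 0.03, 0.43 and 1.04 in PEC libraries. Both treated groups were scattered, and PEC spanned from below the lowest Control to near the middle HN library. The log2FC of 2.12 in HN against Control had an SE of 1.03 and was not called (adjusted p = 0.132, edgeR with Benjamini-Hochberg), nor were those of PEC against HN (0.50 times, SE 0.98 on the log2 scale, adjusted p = 0.458) and PEC against Control (1.12, SE 1.02, adjusted p = 0.398). The HN difference passed without PEC library 1 (2.13, adjusted p = 0.0482, edgeR), in a fit of only HN and Control (2.17, adjusted p = 0.0425) and with limma on log2(FPKM + 1) (0.81, adjusted p = 0.0384), with adjusted p up to 0.34 over all alternatives.

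Of 18 NK and cytotoxic genes, 17 could be tested. The one left out was Ncr1, a defining receptor of NK cells, with 0.06, 0 and 0.08 FPKM in Control, 0, 0.03 and 0.06 in HN mice and 0, 0.03 and 0.26 in PEC libraries. In HN against Control 9 of the 17 were called higher and 0 lower, also 0 with an unadjusted p, DESeq2 or limma, and without HN library 8 the count was 5. The summed FPKM was 3.61, 4.85 and 3.03 in Control mice, 21.02, 35.2 and 20.97 in HN mice and 10.9, 13.7 and 21.4 in PEC libraries, led by Ccl5, a chemokine of T and NK cells. Ccl5 (log2FC 2.87, SE 0.37), Ctsw (2.43, SE 0.45) and Il2rb (2.15, SE 0.24) were each called in HN against Control by edgeR, and Ccl5 (2.56), Ctsw (1.96) and Il2rb (1.22) were called in PEC as well, among 6 genes. PEC libraries had 0 called higher and 3 called lower than HN: Il2rb, a subunit of the interleukin-2 receptor (-0.93, adjusted p = 0.0109), Klrc1, an inhibitory NK receptor (-2.41, adjusted p = 0.0183), and Fasl, a death ligand (-1.87, adjusted p = 0.0263), all by edgeR with Benjamini-Hochberg. The lower count was 5 with DESeq2, library totals or only the 2 groups compared, 6 at an unadjusted p and 1 with the mean FPKM filter. Without HN library 8 that count was 1, as Klrc1 (-2.11, adjusted p = 0.0667, edgeR) and Fasl (-1.11, adjusted p = 0.142) were lost, and both were lost without PEC library 1 as well (-2.32, adjusted p = 0.0611, and -1.70, adjusted p = 0.0864). Fasl was also lost without PEC library 2 (-1.88, adjusted p = 0.0666, edgeR). Klrc1 was called in HN against Control (1.95, adjusted p = 0.0367, edgeR) but not without Control library 2 or 5 or any HN library (1.66 to 2.14, adjusted p between 0.0537 and 0.126).

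S100a8 and S100a9 lie close together on chromosome 3, and their products form the dimer calprotectin, abundant in neutrophils and found in monocytes too. S100a8 (ENSMUSG00000056054, 90668978 to 90670035) had 2.37, 4.30 and 1.27 FPKM in Control, 10.2, 5.37 and 5.71 in HN mice and 2.35, 2.97 and 5.66 in PEC libraries. HN library 4 was the highest, PEC library 3 lay within the HN range, and Control library 4 came near it. None of its log2FC was called: 0.91 in HN against Control (SE 0.49, adjusted p = 0.172 by edgeR with Benjamini-Hochberg), -0.74 in PEC against HN (SE 0.48, adjusted p = 0.261) and 0.17 in PEC against Control (SE 0.49, adjusted p = 0.807). HN against Control passed with limma on log2(FPKM + 1) (1.19, adjusted p = 0.0210), limma on log2(FPKM + 0.1) (1.49, adjusted p = 0.0228) and library totals (1.44, adjusted p = 0.0351), which move the median of all tested genes to 0.35, 0.47 and 0.56, and the adjusted p reached 0.487 over all alternatives. In FPKM, HN and Control did not overlap for S100a8 or S100a9, whereas in TMM-normalised CPM they did.

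S100a9 (ENSMUSG00000056071, 90692632 to 90695721) had 3.09, 6.91 and 2.45 FPKM in Control, 16.1, 7.52 and 10.04 in HN mice and 4.44, 4.54 and 17.9 in PEC libraries. Its mean in each group was the highest of the 10 genes, although Trac (4.64 FPKM) exceeded it in PEC library 2. PEC library 3 exceeded every HN library, whereas PEC libraries 1 and 2 lay within the Control range. The log2FC was 0.92 (SE 0.61, adjusted p = 0.270 by edgeR with Benjamini-Hochberg) in HN against Control, -0.12 (SE 0.61, adjusted p = 0.900) in PEC against HN and 0.80 (SE 0.61, adjusted p = 0.314) in PEC against Control, and without PEC library 3 the last turned to -0.17 (adjusted p = 0.804).

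The other neutrophil genes fell into sharply different levels. Of 20 genes, 14 could be tested, and the other 6 were Ly6g, Mpo, Elane, Camp, Ngp and Cebpe, which are at or near 0 in the table. Ly6g, the defining surface marker of mouse neutrophils, had 0 in all Control libraries, 0, 0.05 and 0.05 FPKM in HN and 0, 0 and 0.12 in PEC libraries, and Elane, a granule protease, was above 0 in PEC library 3 alone (0.06). These 6 genes were hardly visible in any group, whereas other genes of the list were called. In HN against Control, 8 of the 14 were called higher and 0 lower, also 0 with an unadjusted p, DESeq2 or limma but 1 with no filter. Besides Lcn2, Csf3r and Mmp9, the higher genes were Cxcr2 (log2FC 2.59), Padi4 (2.59), Fpr1 (2.61), Fpr2 (3.30) and Prtn3 (3.73), all by edgeR. The summed FPKM (8.86, 16.1 and 5.62 in Control mice, 216, 166 and 163 in HN mice and 112, 79.4 and 243 in PEC libraries) has Lcn2, which injured kidney tubules also make, as its most abundant gene, while S100a8 and S100a9 made up most of it in Control. Lcn2 had a log2FC of 6.28 (SE 0.55) in HN and 6.23 (SE 0.55) in PEC against Control. Csf3r, the receptor of granulocyte colony-stimulating factor, had 0.29, 0.59 and 0.30 FPKM in Control, 4.48, 3.88 and 3.88 in HN mice and 1.80, 2.37 and 3.36 in PEC libraries. It was called in HN (2.86, SE 0.32) and in PEC against Control (2.37, SE 0.32) by edgeR, the latter with Prtn3, Lcn2, Mmp9 and Fpr2 (8 genes with DESeq2 and 3 with limma on log2(FPKM + 1)). Mmp9, a gelatinase of neutrophil granules and of other cells, was the 1 gene lower in PEC than in HN (-1.39, SE 0.40, adjusted p = 0.0215, edgeR with Benjamini-Hochberg). This was lost without HN library 4 (-1.22, adjusted p = 0.0732, edgeR) or 12 (-1.34, adjusted p = 0.0573) and PEC library 1 (-1.09, adjusted p = 0.0541), while without PEC library 3 the list held 5 lower calls.

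**Figure D3:**
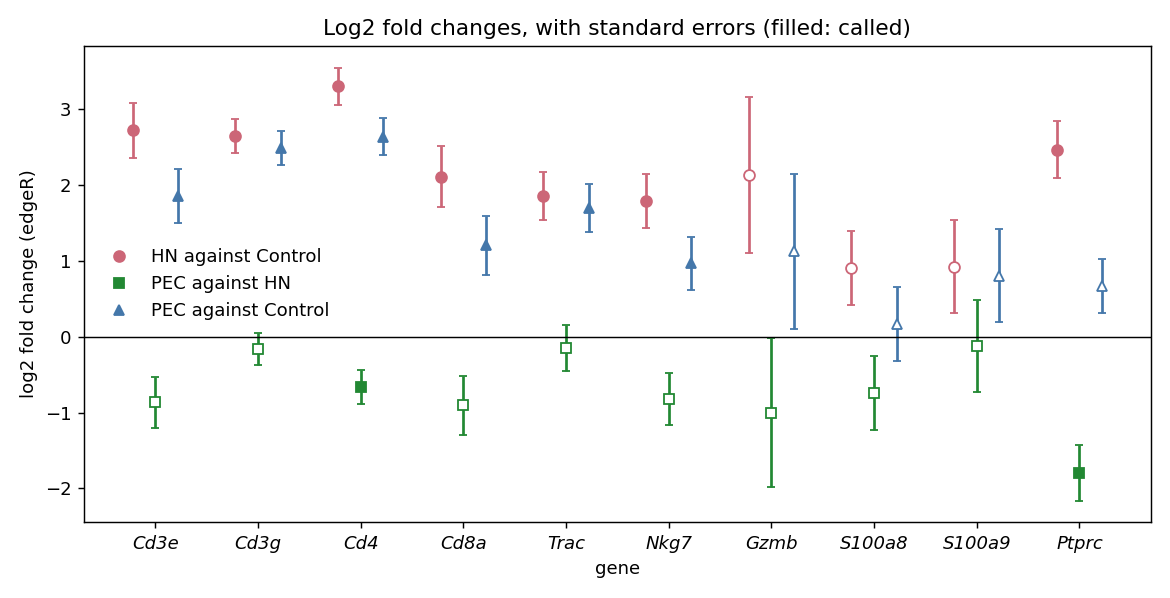
log2FC (vertical axis) of the 10 genes (horizontal axis) in the 3 comparisons by edgeR, with bars of 1 standard error. Filled points were called at an adjusted p of at most 0.05 and a fold change of at least 1.5. The wide bars of Gzmb and S100a9 contrast with the narrow ones of Cd3g and Cd4.

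Ptprc (ENSMUSG00000026395, chromosome 1 from 138062861 to 138175306) encodes CD45. Its FPKM was 0.52, 0.72 and 0.54 in Control mice, 4.98, 5.40 and 3.88 in HN mice and 0.72, 2.01 and 0.81 in PEC libraries. HN stood apart from both other groups, PEC library 2 was more than double the other PEC libraries, and PEC library 1 equalled the highest Control library. The log2FC was 2.46 in HN against Control (SE 0.38, adjusted p = 0.000693 by edgeR with Benjamini-Hochberg). From HN to PEC it fell by 1.79 on the log2 scale (SE 0.37, adjusted p = 0.00456, edgeR with Benjamini-Hochberg), the largest fall of the 10 genes and lower in 3 of 3 libraries, and with each library left out the log2FC stayed between -2.43 and -1.54. PEC and Control differed by 0.67 (SE 0.36, adjusted p = 0.159, edgeR), a value that ranged from 0.04 to 0.92 with each library left out.

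Ptprc is also the longest of the 10 genes, with 18313 exon bases against between 522 and 4080 in the others, and its GC content of 40.0% is the lowest. With length and GC content removed its fall from HN to PEC shrank to -0.86 and was not called (adjusted p = 0.0878 by edgeR with Benjamini-Hochberg, range 3.19e-06 to 0.0878 over all alternatives), and its difference between PEC and Control grew to 1.37 and was called (adjusted p = 0.0112). PEC against Control was called also with length alone removed (1.01, adjusted p = 0.0369, edgeR) and with library totals (1.01, adjusted p = 0.0387).

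The other 9 pan-leukocyte genes were compared with it. All 10 were called higher in HN than in Control, and 9, all but Ptprc, in PEC than in Control, with 0 called lower by edgeR, DESeq2, limma or an unadjusted p. Their summed FPKM was 18.0, 24.1 and 19.0 in Control mice, 171, 227 and 174 in HN mice and 99.2, 112 and 134 in PEC libraries, so that here PEC lay between HN and Control with no overlap. Cd52, the most abundant, had a log2FC of -0.05 (SE 0.23, adjusted p = 0.877, edgeR with Benjamini-Hochberg) between PEC and HN. Called lower were Ptprc, Laptm5 (-0.96, SE 0.11), Cd53 (-0.71, SE 0.14) and Itgb2 (-0.60, SE 0.17), and 0 were higher. Itgb2 was not called without HN library 8 (-0.50, adjusted p = 0.0768, edgeR with Benjamini-Hochberg) and without PEC library 1 (-0.43, adjusted p = 0.0402), and Cd53 not with length and GC content removed (-0.45). With upper-quartile scaling neither was called (-0.47 and -0.58) and the count was 2, and Itgb2 was not called with the mean FPKM filter (-0.58) or with length removed (-0.58) either. With library totals and with both limma fits 9 of the 10 were lower in PEC than in HN. Set against each of the other 9 genes within a library, Ptprc was lower in PEC than in HN by a mean log2 ratio between -1.89 (Cd52) and -0.98 (Laptm5), with no overlap of libraries except for Laptm5. These ratios were chosen after the values of Ptprc were seen.

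**Figure D4:**
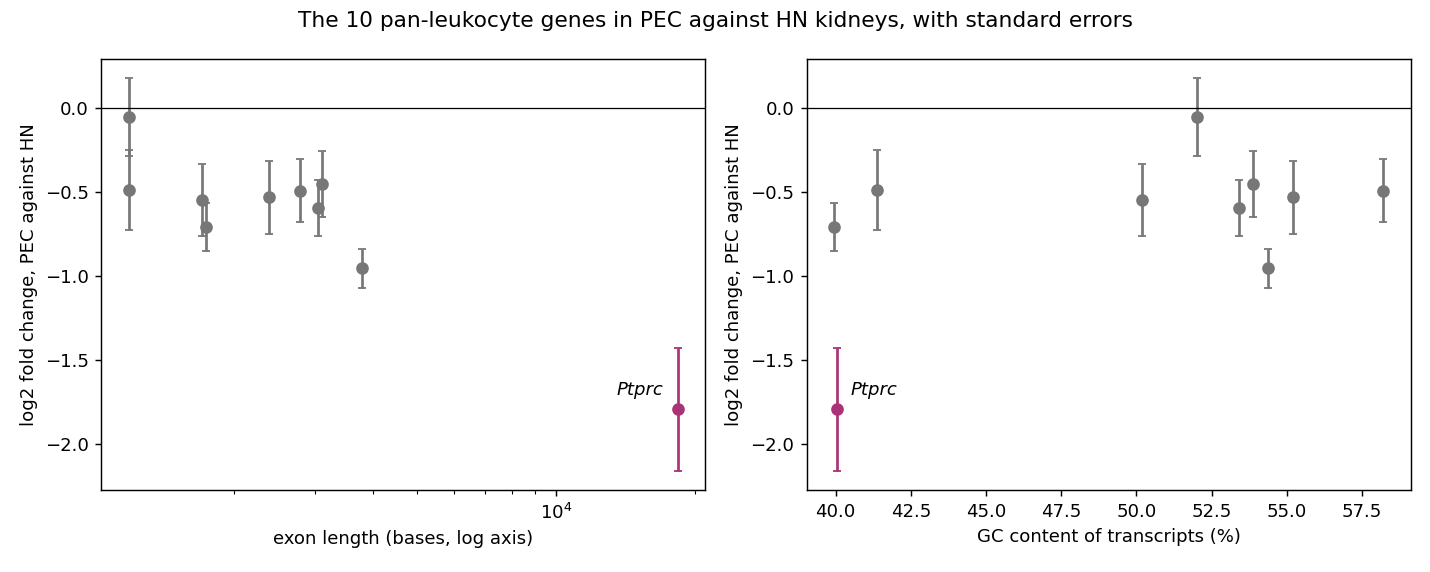
log2FC of the 10 pan-leukocyte genes in PEC against HN (vertical axis) against their exon length in bases (horizontal axis, log scale) and against their GC content in percent (horizontal axis, linear). Each point is 1 gene. Ptprc, at 18313 bases and 40.0% GC, is the lowest point at -1.79.

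Relative to Ptprc the T cell genes were therefore higher in PEC than in HN libraries. The log2 ratio of Cd3g to Ptprc was -1.70, -2 and -1.95 in Control mice, -2.07, -1.60 and -1.33 in HN mice and 0.77, -1.08 and 0.65 in PEC libraries. PEC and HN did not overlap, but PEC library 2 stayed near HN. The mean difference of PEC minus HN was 1.78 for Cd3g, 1.81 for Trac, 1.27 for Cd4, 1.09 for Cd3e, 1.08 for Cd8a and 1.11 for Nkg7, each with an exact two-sided permutation p of 0.1, the smallest possible (0.24 after Benjamini-Hochberg adjustment over the 36 ratios). With the mean of Cd53, Laptm5 and Itgb2 in place of Ptprc, those differences became 0.60, 0.63, 0.09, -0.09, -0.11 and -0.07 in the same order, so they rest on the choice of Ptprc. In HN against Control the log2 ratio to Ptprc of the neutrophil pair was lower, by -1.47 for S100a8 and -1.49 for S100a9, with no overlap (exact permutation p = 0.1 each, 0.24 after adjustment), and by -2.13 and -2.15 against the mean of the other 3 genes. In PEC against HN the same ratios to Ptprc were 1.16 and 1.57, with overlap (exact permutation p = 0.2 and 0.3), and -0.02 and 0.39 against that mean.

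**Figure D5:**
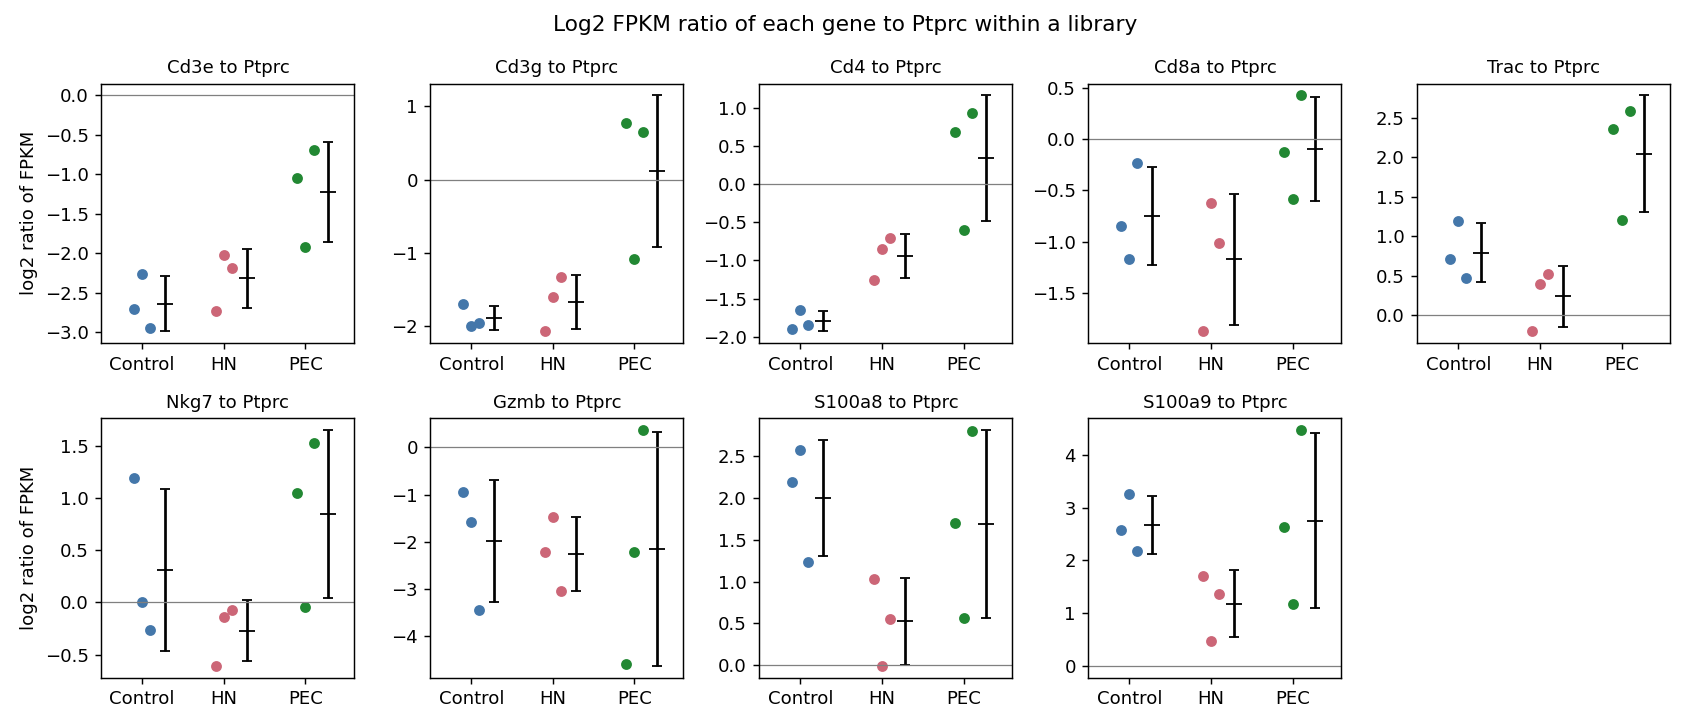
log2 ratio of the FPKM of each of the other 9 genes to that of Ptprc (vertical axis) in each library, by group (horizontal axis). Each point is 1 mouse and the bars are the mean ± SD of 3 mice. For the T cell genes and Nkg7 the PEC points lie above the HN points, with PEC library 2 the lowest PEC point of Cd3g at -1.08.

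Most, but not all, of the listed genes that draw T cells and neutrophils into tissue were called higher too. Of 17, 14 were called higher in HN than in Control (all but Ccl19, Ccl21a and Sele) and 12 in PEC than in Control, with 0 lower by edgeR, DESeq2, limma or an unadjusted p. Their summed FPKM was 26.5, 31.3 and 26.8 in Control mice, 199, 195 and 177 in HN mice and 125, 137 and 137 in PEC libraries. Cxcl16, a chemokine for activated T cells and the most abundant, had 10.7, 12.1 and 10.7 FPKM in Control, 50.8, 49.7 and 49.7 in HN mice and 38.0, 39.8 and 37.6 in PEC libraries. Its log2FC against Control was 1.63 (SE 0.08) in HN and 1.47 (SE 0.08) in PEC, and PEC and HN differed by -0.16 (adjusted p = 0.108, edgeR with Benjamini-Hochberg). The endothelial adhesion gene Vcam1 rose by 4.64 in HN (SE 0.17) and fell by 0.84 from HN to PEC (SE 0.15, adjusted p = 0.00223, edgeR with Benjamini-Hochberg), although with length and GC content removed it was -0.16 and not called (adjusted p = 0.492). Icam1 rose by 1.67 in HN (SE 0.15) and was 0.17 in PEC against HN (SE 0.15, adjusted p = 0.391, edgeR). In all 6 genes were lower in PEC than in HN, 3 without PEC library 1, and 0 were higher.

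Genes of other cells moved with these groups, and their part in the results was not tested. All 12 macrophage and monocyte genes were higher in HN than in Control, 10 were lower in PEC than in HN and 10 higher in PEC than in Control. Their summed FPKM was 64.4, 75.4 and 61.1 in Control mice, 1295, 1381 and 1186 in HN mice and 459, 491 and 632 in PEC libraries, led by Lyz2. This total is far above that of the T cell receptor list in every library. Of 9 B cell genes 3 were higher in HN and 3 in PEC than in Control (Cd79b and Cd22 in both, with Cd79a in HN and Blk in PEC), and 0 differed between PEC and HN by edgeR, while 1 was lower with length and GC content removed. The B cell count in HN was 5 with DESeq2 and 1 with limma, and Cd79a lost its call without Control library 2 (1.51) or 4 (1.66) and HN library 4 (1.85), 8 (1.82) or 12 (1.78). Their summed FPKM was 0.51, 0.46 and 0.73 in Control mice, 2.99, 4.39 and 3.85 in HN mice and 2.56, 2.25 and 2.30 in PEC libraries, led by Cd79b. Among 7 plasma cell genes HN exceeded Control for 4 and fell below it for 1, Derl3, and Jchain (-3.57) and Igkc (-2.31) were lower in PEC than in HN. In PEC against Control 2 plasma cell genes were higher, Sdc1 and Ighm, and 1 was lower, Derl3. Their sum, led by Igkc, was 21.6, 43.7 and 51.2 in Control mice, 269, 383 and 327 in HN mice and 65.7, 99.1 and 58.4 in PEC libraries.

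Of 7 dendritic cell genes, led by Itgax, 3 were higher in HN (5 with limma on log2(FPKM + 0.1) and 6 with library totals) and 5 in PEC than in Control (3 with limma on log2(FPKM + 1)), and 0 differed between PEC and HN by edgeR, with 2 higher at an unadjusted p and 1 with DESeq2. Their summed FPKM was 2.90, 3.02 and 2.57 in Control mice, 11.6, 14.6 and 12.5 in HN mice and 14.5, 15.5 and 11.3 in PEC libraries. Of 7 mast cell and eosinophil genes 3 could be tested, with Siglecf higher in HN than in Control and Prg2, listed at 0 in all PEC libraries, lower in PEC than in both. The Prg2 call against Control was lost in 8 of the 9 fits that left out 1 library, all but the one without Control library 2. Cpa3, Mcpt4, Tpsb2 and Epx were at or near 0, and the sum, led by Kit, was 1.72, 1.78 and 1.62 in Control mice, 4.20, 4.17 and 4.70 in HN mice and 3.12, 2.69 and 2.88 in PEC libraries. RNA of erythroid and platelet genes may come from blood left in the tissue, which was not tested. Their summed FPKM was 340, 329 and 511 in Control mice, 101, 80.4 and 65.7 in HN mice and 319, 390 and 329 in PEC libraries, led by Hba-a1. Of 7 tested, HN exceeded Control for 2 and fell below it for 5, PEC exceeded HN for 5 and fell below it for 1, and PEC exceeded Control for 1 and fell below it for 3 (1 with library totals and both limma fits), where the higher count was 3 with DESeq2, library totals and upper-quartile scaling. The genes higher in HN than in Control were the platelet genes Pf4 (3.63) and Ppbp (1.25). Of 12 kidney genes, led by Umod, 8 were lower in HN than in Control, 5 were higher in PEC than in HN and 7 lower in PEC than in Control. With both limma fits these counts were 5, 3 and 4, and the last was also 4 with library totals. Library totals called 2 higher in HN and 2 higher in PEC than in Control. The sum of the 12 kidney genes was 2254, 2495 and 2295 FPKM in Control, 2084, 1864 and 2087 in HN mice and 2084, 2234 and 1910 in PEC libraries.

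Among the 10 genes, Pearson r of log2 CPM over the 9 libraries was 0.98 for Cd3e and Cd4, 0.97 for Cd3e and Trac and 0.98 for Cd3g and Cd4. Cd8a had an r of 0.90 with Cd3e, 0.88 with Cd4, 0.83 with Trac and 0.82 with Cd3g. S100a8 and S100a9 had an r of 0.90 with each other and of 0.60 and 0.55 with Cd3e. Ptprc had an r of 0.82 with Cd3e and 0.62 with Cd3g. Of the 15402 genes searched for likeness, those most like Cd3e were Lat, Rasal3, Ltb, Lrrc25 and Kif21b (r = 0.99 each). Those most like S100a8 were Ifrd1 (0.95), Prkch (0.95), Wnt7b (0.93), Stk39 (0.93) and Steap4 (0.93). These r describe 9 libraries in 3 groups and share the libraries' scaling and composition.

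The sequence before the start site is shown for those of the 10 genes with a window that lies wholly outside the deposited gene. RefSeq (GRCm38.p6) gave a window of the 250 bases before the start for 8 of the 10 genes, and 4 of these qualified: Cd3g (chr9:44980432-44980681, minus strand), Cd8a (chr6:71373177-71373426, plus strand), Gzmb (chr14:56262335-56262584, minus strand) and S100a9 (chr3:90695722-90695971, minus strand). Capitals mark matches, on either strand, to motifs of factors known from these lineages: TTCNNNGAA (STAT), TTGCNNAA (CEBP) and TGTGGT (RUNX, read as ACCACA on the other strand), besides the TATA box TATAAA.
Cd3g: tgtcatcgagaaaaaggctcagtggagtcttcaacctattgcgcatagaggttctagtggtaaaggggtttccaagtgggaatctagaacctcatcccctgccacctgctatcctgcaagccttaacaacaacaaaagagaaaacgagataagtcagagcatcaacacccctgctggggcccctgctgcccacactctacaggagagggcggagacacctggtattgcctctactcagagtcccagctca
Cd8a: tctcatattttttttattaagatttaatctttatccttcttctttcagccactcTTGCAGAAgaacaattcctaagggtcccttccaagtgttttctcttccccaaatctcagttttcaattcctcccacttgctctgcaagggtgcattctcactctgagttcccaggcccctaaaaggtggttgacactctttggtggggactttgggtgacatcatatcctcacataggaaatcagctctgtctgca
Gzmb: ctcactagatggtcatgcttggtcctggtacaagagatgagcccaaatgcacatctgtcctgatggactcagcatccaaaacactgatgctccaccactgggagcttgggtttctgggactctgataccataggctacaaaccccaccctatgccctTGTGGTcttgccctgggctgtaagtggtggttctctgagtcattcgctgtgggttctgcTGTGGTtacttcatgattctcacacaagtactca
S100a9: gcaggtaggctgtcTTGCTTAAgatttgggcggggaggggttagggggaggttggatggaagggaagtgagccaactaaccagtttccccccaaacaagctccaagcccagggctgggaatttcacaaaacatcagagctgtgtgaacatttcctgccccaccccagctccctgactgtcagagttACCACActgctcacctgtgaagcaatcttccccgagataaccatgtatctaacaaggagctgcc
Of 32851 promoter windows of this length, 7.02% held the STAT, 9.56% the CEBP, 14.0% the RUNX and 12.4% the TATA letters. Cd3g held none of them. Cd8a held the CEBP letters at position -196 from the start, Gzmb the RUNX letters at -93 and -34, and S100a9 the CEBP letters at -236 and the RUNX letters at -64. A match describes letters only and is not a binding site.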

How the data were processed

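The authors deposited 1 table for the 9 kidney libraries, with whole-number counts of reads per gene that were not normalized and FPKM that the authors computed from them. The submitters' processing notes name Bowtie 0.12.2, mm8 and mm9, with no role given, yet 51991 of the 55144 genes found in GENCODE M21 have identical GRCm38 coordinates. The counting program and use of strand are not given in the sources used here, so reads of antisense or overlapping genes cannot be told apart.

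Genes that passed filterByExpr (count minimum 10) were tested with edgeR 4.0.16 in R 4.3.3 (TMM, glmQLFit and glmQLFTest, 1 fit over all libraries). The SE is the size of the log2FC divided by the square root of F. Limma 3.58.1, DESeq2 1.42.0, other scalings, filters and thresholds, splines (5 degrees of freedom) on exon length and GC content, and each library left out were alternatives. Ratios of FPKM were tested with exact permutation in scipy 1.17.1 (Python 3.11.15). Replicates differed by more than counting error (chi-square over its degrees of freedom from 57.4 to 194). The edgeR, DESeq2 and limma steps were tested on simulated data.

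Named were the 10 genes, the 3 most abundant others of each list, the 5 most like Cd3e and S100a8, and, picked after values were seen, list genes behind counts of 5 or fewer. The genes and lists were chosen with earlier results of these data known.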

Additional observations from a re-analysis of the deposited data

How the results depend on the processing

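In HN against Control, 3777 genes were called higher in edgeR and 3154 lower. The higher count was 5906 with limma on log2(FPKM + 0.1) and 7707 with library totals. The lower count was 1024 with limma on log2(FPKM + 1), 1191 with limma on log2(FPKM + 0.1), 1287 with library totals, 4986 with length removed, 4987 with length and GC content removed and 1902 at a fold change of at least 2. In PEC against HN, 2875 were higher and 3266 lower. The higher count was 1356 and 1683 with the 2 limma fits, and at a fold change of at least 2 the counts were 1771 higher and 1823 lower. In PEC against Control, 4053 were higher and 3731 lower. The higher count was 6414 with library totals, and the lower count 1485 and 1919 with the limma fits, 1962 with library totals and 2089 at a fold change of at least 2. The causes of these shifts were not tested.

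The share of calls that were higher was 54.5% in HN against Control, 46.8% in PEC against HN and 52.1% in PEC against Control. It was 85.7%, 29.6% and 76.6% with library totals, 82.0%, 28.6% and 70.7% with limma on log2(FPKM + 1), 83.2%, 28.4% and 70.9% with limma on log2(FPKM + 0.1), 56.9%, 58.1% and 63.6% with upper-quartile scaling, 37.6%, 57.0% and 41.1% with length removed, and 37.6%, 56.5% and 39.8% with length and GC content removed. Library totals moved the median log2FC of all genes to 0.56, -0.21 and 0.40, upper-quartile scaling to 0.03, 0.11 and 0.20, and length removal to -0.25, 0.07 and -0.13. The planned length and GC corrections also remove each library's mean. A form that keeps this mean was added after their result was seen, and called 3206 (length) and 3221 (length and GC content) genes lower in HN against Control.

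Of the 10 genes, 2 were lower in PEC than in HN. That count was 5 with limma on log2(FPKM + 0.1), with library totals and at an unadjusted p, 4 with only the 2 groups compared, 1 with upper-quartile scaling, no filter or a fold change of at least 2, and 1 to 3 with each library left out. The 7 called higher in HN than in Control ranged from 7 to 9, and the 6 called higher in PEC than in Control from 4 to 7. S100a9 in PEC against Control ranged from -0.17 (without PEC library 3) to 1.35 with each library left out, and Ctsw in PEC against HN from -0.84 to 0.14 (without HN library 8). Igkc in PEC against Control turned to -0.26 with length and GC content removed. The causes were not tested. The groups held different mice and the labels pair none of them, so no paired analysis was made. With 3 mice a group, the ratios could not pass an exact test, and Gzmb and Trdc rest on few counts.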
